A study of Mus musculus with 12 samples.

Results

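The nuclear genes of the mitochondrial respiratory chain were followed in total bone marrow of mice with multiple myeloma, before and during treatment with an antibody to CD137. Members were taken by name: rows of the normalised count table whose symbol begins with Nduf, Sdha, Sdhb, Sdhc, Sdhd, Uqcr, Cox4, Cox5, Cox6, Cox7, Cox8 or Atp5, without those carrying -ps, and with a mean of at least 10 normalised counts over the 12 samples. The table held 23134 genes, of which 98 matched these beginnings, 14 were left out for -ps and 7 for a lower mean, which left 77 members. The members just inside the limit were Sdhaf1, with a mean of 14.2, and Cox7a1, with 18.8, and those just outside were Cox4i2, with 8.67, and Cox6c2, with 6.58. All 77 members passed the filter for testing, as did 14883 genes in all.

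The mice were C57BL/6 and had received Vk12653 cells intravenously, a transplantable myeloma line derived from the Vk*MYC model. Untreated marrow (D0) was taken 10 days after the myeloma injection. Treated marrow came from mice given the CD137 agonist 3H3 intraperitoneally, 10 µg per injection and 2 injections a week, and was taken on day 4, 11 or 18 of treatment (D4, D11, D18), which are days 14, 21 and 28 after the myeloma injection. Each group had 3 samples, and untreated marrow of the later days was not analysed here, so antibody exposure and time with myeloma cannot be told apart. The labels do not say how many mice stand behind a sample, so p-values measure only the spread between these samples, which may be technical.

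The respiratory chain sits in the inner mitochondrial membrane. Complex I oxidises NADH and complex II oxidises succinate, both pass electrons through ubiquinone to complex III, cytochrome c carries them to complex IV, and complex IV reduces oxygen to water. Complexes I, III and IV pump protons, and the ATP synthase (complex V) lets them flow back through a rotor to make ATP. All but complex II also hold subunits encoded in mitochondrial DNA, which were not analysed here, as were the nuclear core subunits Ndufv1, Ndufv2 and Ndufs8. In marrow the demand on the chain differs by lineage: erythroid precursors also need mitochondria for haem synthesis, while mature neutrophils hold few and rely on glycolysis.

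Normalised totals ran from 19.2 to 20.8 M per sample, and the depth estimated from steps among low values ran from 16.0 to 25.2 M reads. It was 25.2, 23.0 and 21.6 M at D0 and 16.0, 17.8 and 16.7 M at D4, without overlap. A fit with estimated depth as a covariate therefore cannot tell depth from the day 4 change. Markers of several cell types changed over the same days. Of 8 T cell markers 3, 7 and 7 rose at day 4, 11 and 18 against untreated marrow, and of 7 mature B cell markers 3, 7 and 7 fell. Of 6 neutrophil precursor markers 2, 2 and 5 rose, and of 8 erythroid markers 2 fell at day 18. Of 5 cytotoxic markers 3, 5 and 5 rose, of 7 markers of dividing cells 3, 2 and 1 rose, and of 4 monocyte markers 2, 0 and 2 fell. Of 5 plasma cell and myeloma markers 0, 1 and 1 rose and 0, 1 and 1 fell, and of 9 mature neutrophil markers 0 were called at any time, with 1, 0 and 1 under an unadjusted p of 0.05 in limma. In RNA from whole marrow, fewer cells of a type and less RNA per cell cannot be told apart. The part of these markers in the values below was not tested. Single libraries stood apart for short transcripts, D18 replicate 3 high and D0 replicates 1 and 3 and D18 replicate 1 low.

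The members fell into 34 genes of complex I (27 subunits and 7 assembly factors), 7 of complex II (4 subunits and 3 assembly factors), 8 of complex III, 13 of complex IV and 15 of complex V. Levels were set per kilobase of the principal transcript, as the mean over 12 samples. On that scale the median subunit stood at 939 normalised counts per kilobase in complex I, 1653 in complex II, 1781 in complex III, 2842 in complex V and 2856 in complex IV (without its 3 tissue isoforms). The 10 assembly factors, which help build a complex and are not part of it, had a median of 112 per kilobase, and the highest of them, Ndufaf8, reached 256. Of the 27 complex I subunits 4 stood below Ndufaf8: Ndufb2 with 20.9, Ndufab1 with 130, Ndufb9 with 222 and Ndufc1 with 227 per kilobase. The values of Ndufb2 and Ndufab1 rest on principal transcripts of 4371 and 3479 bases, against 781 for Ndufaf8. In mean normalised counts Ndufab1 with 452 and Ndufc1 with 283 stood above Ndufaf8 with 200. Ndufb9 with 156 and Ndufb2 with 91.4 stood below it. Ndufb9 and Ndufb2 each have exons that overlap another protein-coding gene on the same strand, and the part of this in their levels was not tested.

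**Figure D1:**
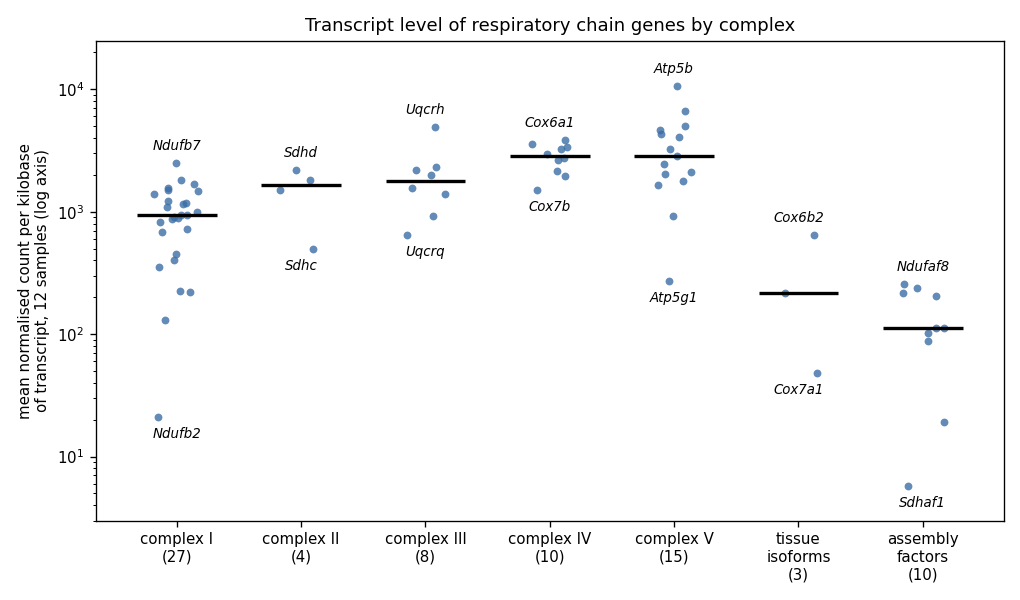
Mean normalised count per kilobase of principal transcript (log axis) of each of the 77 genes over 12 samples; each point is a gene, bars are medians, numbers under the axis count genes, and the highest and lowest gene of each class is named. Atp5b of complex V stands highest at 10568 per kilobase, Sdhaf1 lowest at 5.72, and the 10 assembly factors lie at or below 256.

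Atp5b, the catalytic beta subunit of the ATP synthase, was the most abundant member (chr10:128083273-128090391, plus strand, GRCm38). Its normalised counts were 18157, 18921 and 17952 at D0, 20606, 21369 and 21542 at D4, 20905, 20193 and 21631 at D11, and 19391, 20858 and 21464 at D18. Every treated sample was above every untreated one, by a fitted log2 change of 0.21 ± 0.07 (SE) at day 4, 0.19 ± 0.07 at day 11 and 0.16 ± 0.07 at day 18. None of these passed limma with Benjamini-Hochberg adjustment over all genes (adjusted p = 0.113, 0.147 and 0.176). With sample weights the day 4 and day 11 changes passed (adjusted p = 0.0248 and 0.0356), and with quantile normalization the changes were 0.07, 0.09 and 0.05. The alpha subunit Atp5a1, which alternates with beta in the catalytic head, stood at 14155, 14899 and 14575 at D0, and at 16701, 18062 and 17095 at D4. Its day 4 change of 0.25 ± 0.07 had the smallest adjusted p of any member at that time (limma, 0.0753). It passed without D18 replicate 3 (adjusted p = 0.0361) and with sample weights (0.0203), and was 0.11 with quantile normalization and 0.13 with estimated depth as a covariate. Its D11 samples (16570, 17536 and 16616) and D18 samples (15121, 16596 and 17789) also lay above all 3 untreated samples.

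The gamma subunit Atp5c1, the shaft that turns inside the head, stood at 4755 ± 138 (SD, n = 3) at D0, 5252 ± 63.3 at D4, 5099 ± 346 at D11 and 5144 ± 250 at D18. Atp5pb, the b subunit of the peripheral stalk, stood at 4911 ± 318, 5279 ± 132, 5226 ± 135 and 5363 ± 435. Atp5g1, Atp5g2 and Atp5g3 encode the same mature c subunit of the membrane rotor. Over 12 samples Atp5g3 stood at 4969 per kilobase, Atp5g2 at 2842 and Atp5g1 at 274, and the Atp5g1 value rests on a principal transcript of 4715 bases against 731 and 723 for the others. Atp5g2 had one of the 3 highest changes at day 18: from 1808, 1992 and 1644 at D0 to 1996, 2114 and 2545, a log2 change of 0.29 ± 0.10 (limma, adjusted p = 0.0838). The lowest D18 sample lay just above the highest D0 sample. The change was 0.18 without D18 replicate 3 and passed at 0.36 without D18 replicate 1 (adjusted p = 0.0490), and with the level of short genes as a covariate it was 0.16.

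In complex I, the membrane arm and the NADH-oxidising arm are built from core subunits shared with bacteria and many accessory subunits. Ndufs1, the large iron-sulfur core subunit, stood at 1828 ± 55.6 at D0, 1868 ± 133 at D4, 1862 ± 64.8 at D11 and 1721 ± 99.4 at D18, with exons that overlap Eef1b2 on the opposite strand. The highest fitted change of complex I at day 11 was that of the accessory subunit Ndufs5, from 455, 594 and 472 at D0 to 597, 634 and 588 (0.27 ± 0.11, adjusted p = 0.194 in limma), and the groups overlapped. With the short-gene covariate it was 0.14.

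Ndufb2, an accessory subunit of the membrane arm (chr6:39592574-39603382, plus strand), gave the lowest fitted change of all members at each time. Its normalised counts were 93, 115 and 134 at D0, 85, 80 and 74 at D4, 86, 67 and 114 at D11, and 86, 72 and 91 at D18. All D4 and all D18 samples lay below all D0 samples, and D11 overlapped D0. The log2 changes were -0.50 ± 0.20, -0.37 ± 0.20 and -0.44 ± 0.20, with limma adjusted p of 0.168, 0.314 and 0.191. The day 11 change was -0.19 without D11 replicate 2 and -0.56 without D11 replicate 3, and the day 4 change passed with sample weights (-0.59, adjusted p = 0.0419). Ndufab1, the acyl carrier protein, was the third lowest at day 4 (-0.09 ± 0.10, adjusted p = 0.679). The exons of Ndufb2 overlap those of Braf on the opposite strand and of another protein-coding gene on the same strand, and the strand setting of the counting is not given in the sources used here, so reads of these genes cannot be told apart here. Braf itself stood at 2422, 1976 and 2392 at D0 and at 1445 to 2136 in the treated samples, and its part in the Ndufb2 value was not tested. At 20.9 per kilobase Ndufb2 stood below the next complex I subunit, Ndufab1 with 130, on principal transcripts of 4371 and 3479 bases.

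Complex II is the link to the citric acid cycle. Its flavoprotein Sdha had 4962, 5029 and 4898 at D0, 5323, 5446 and 5438 at D4, 5146, 5526 and 5481 at D11, and 5095, 5250 and 5205 at D18. The groups did not overlap with D0 at any time, yet the changes were small (0.12 ± 0.06, 0.12 ± 0.06 and 0.06 ± 0.06) and none passed (limma, adjusted p = 0.236, 0.262 and 0.545). Its partner Sdhb, the iron-sulfur subunit (chr4:140961203-140979193, plus strand), stood at 1598, 1572 and 1461 at D0, 1760, 1759 and 1559 at D4, 1803, 1738 and 1761 at D11, and 1685, 1837 and 2036 at D18. D11 and D18 lay wholly above D0, and D4 overlapped it. At day 18 the change was 0.26 ± 0.08, 1.20-fold, with an adjusted p of 0.0512 in limma, the smallest of any member in that comparison. It passed without D18 replicate 1 (0.33, adjusted p = 0.0249), with sample weights (0.0384), with a mean of at least 40 (0.0457) and with a pseudocount of 5 (0.0498), and over all alternatives the adjusted p ran from 0.0249 to 0.183.

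In complex III, 2 members were among the 3 highest fitted changes at day 4. Uqcrq, a small ubiquinone-binding subunit (chr11:53427922-53430831, minus strand), stood at 878, 978 and 804 at D0, 1029, 1132 and 1053 at D4, 1083, 1091 and 1006 at D11, and 889, 915 and 1021 at D18. D4 and D11 lay wholly above D0 and D18 overlapped it. The changes at day 4 and 11 were 0.28 ± 0.08 and 0.26 ± 0.08 (limma, adjusted p = 0.0784 and 0.0935). The day 11 change passed with sample weights (0.30, adjusted p = 0.0113) and was 0.16 with the short-gene covariate. Without D18 replicate 3 the day 4 change passed, with an adjusted p of 0.0447, as it did with sample weights (0.0162), and over all alternatives its adjusted p ran up to 0.507. The hinge protein Uqcrh had as large a day 4 change, 0.28 ± 0.14, with overlapping groups (2162, 2850 and 2334 at D0 and 2937, 3148 and 2782 at D4; adjusted p = 0.288), and it was 0.07 with the short-gene covariate. Uqcrc1, a core protein on the matrix side, stood at 3542 ± 208, 3914 ± 225, 3982 ± 142 and 3941 ± 447 over the 4 times. The Rieske protein Uqcrfs1 stood at 2592 ± 190, 2858 ± 105, 2688 ± 326 and 2740 ± 30.8.

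In complex IV, Cox4i1, the regulatory subunit that binds ATP, whose exons overlap Emc8 on the opposite strand, stood at 2178 ± 278 at D0, 2612 ± 228 at D4, 2571 ± 397 at D11 and 2543 ± 582 at D18. Cox5a stood at 1313 ± 85.1, 1392 ± 80.8, 1386 ± 54.9 and 1420 ± 81.7. Ndufa4, first assigned to complex I and now counted with complex IV, stood at 1878 ± 251, 2119 ± 124, 2157 ± 58.8 and 2106 ± 290. The D18 spread of Cox4i1 came from 2114, 2310 and 3205, and D18 replicate 3 was also the highest of all 12 samples in many other members.

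Against untreated marrow no member passed limma at an adjusted p of 0.05 at any time. At day 4, 0 of 77 were called where 4.64% of all genes were, and 12 members had an unadjusted p under 0.05, against 20% of all genes. At day 11, 0 of 77 were called against a background of 5.32%, with 12 under an unadjusted 0.05 (background 19.7%). At day 18, 0 of 77 were called against 9.2%, with 7 under an unadjusted 0.05 (background 23.2%). Between treated times the counts were also 0 of 77: day 11 against day 4 (background 1.68%, 1 member under an unadjusted 0.05, background 11.8%), day 18 against day 4 (5.48%, 2 members under it, background 18%) and day 18 against day 11 (0.00672%, 1 member under an unadjusted 0.05, background 6.99%). The 95% intervals of the fitted change lay within 1.5-fold in either direction for 72, 69 and 71 of 77 members at day 4, 11 and 18. They lay within 2-fold for all 77 at day 4 and 11 and for 76 at day 18, the exception being the low-count Sdhaf1.

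Small shifts upward were common. The fitted change was above 0 in 70, 72 and 70 of 77 members (background 51%, 50.5% and 50.1% of all genes), and the median fitted change of the members was 0.14, 0.14 and 0.11 on the log2 scale, against 0.01, 0.00 and 0.00 over all genes tested. All 15 complex V genes and all 8 complex III genes were fitted above 0 at each time. Their medians were 0.14, 0.18 and 0.14 for complex V and 0.18, 0.15 and 0.10 for complex III. This was not particular to them: each subunit of complex II and each general subunit of complex IV also had a higher mean at each time than at D0. In complex I some subunits, such as Ndufb2, had lower means. Assembly factors had medians of 0.07, 0.10 and 0.02. All 3 samples lay above all untreated samples in 12, 15 and 8 members (background 13.5%, 14.1% and 13.8%) and below them in 2, 0 and 1 (background 12.1%, 12.3% and 12.6%). The 3 comparisons share the untreated samples.

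**Figure D2:**
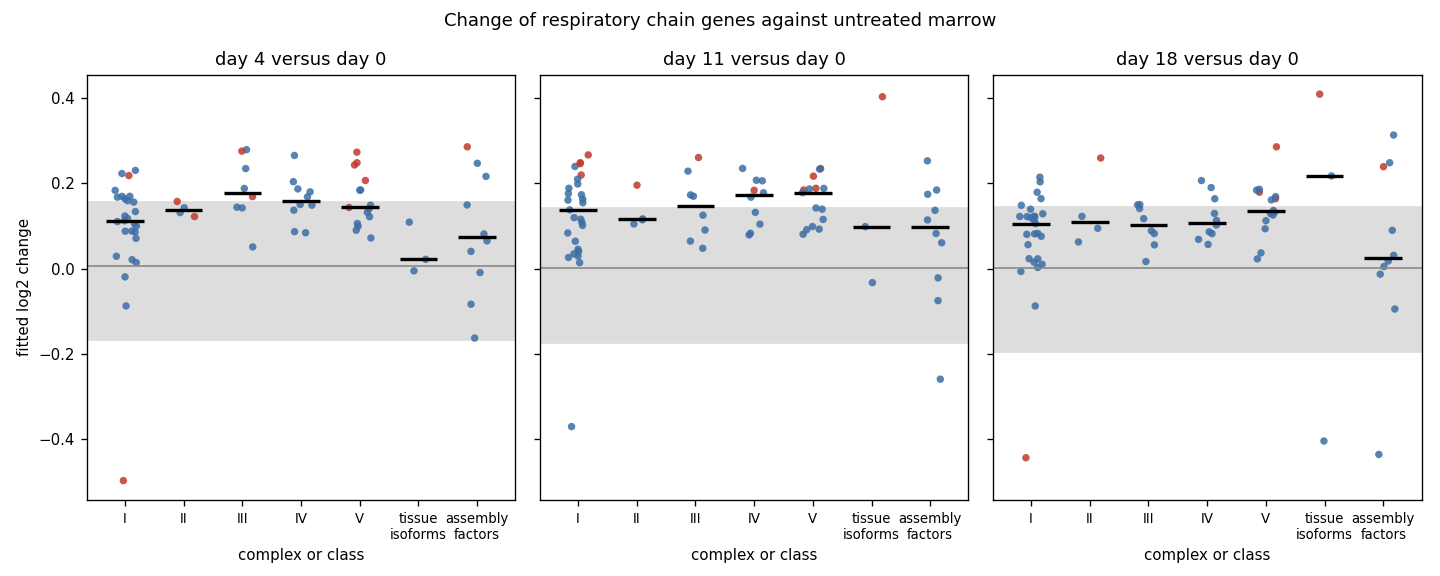
Fitted log2 change of each of the 77 genes against untreated marrow at day 4, 11 and 18; points are genes, red where the unadjusted p is under 0.05, black bars are medians of each complex (subunits), of tissue isoforms and of assembly factors, the grey line is the median and the grey band the quartile range of all 14883 genes tested. Most points sit above the grey line (70, 72 and 70 of 77), and no gene passed after adjustment.

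The size of that shift changed with the library left out, most at day 18, while the median kept its sign in each such fit. Per sample, the median deviation of the 77 members from their own means was -0.15, 0.07 and -0.19 in the D0 replicates, 0.03, 0.13 and -0.02 at D4, 0.05, 0.09 and 0.03 at D11, and -0.12, -0.04 and 0.20 at D18. D0 replicate 2 stood inside the range of the treated samples and D18 replicate 3 was the highest of all. Leaving out 1 library at a time moved the median change to between 0.09 and 0.20 at day 4, between 0.08 and 0.22 at day 11 and between 0.01 and 0.19 at day 18. Without D0 replicate 3 it was 0.09, 0.08 and 0.06, without D0 replicate 2 it was 0.20, 0.22 and 0.19, and without D18 replicate 3 the day 18 value was 0.01. Without D18 replicate 1 the day 18 value was 0.18, and without D0 replicate 1 it was 0.08.

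The same libraries were high and low for other short transcripts. Protein-coding genes outside the members with a mean of at least 100 and transcripts under 1000 bases (416 genes) gave -0.12, 0.05 and -0.16 at D0 and -0.09, -0.06 and 0.20 at D18. The 72 cytosolic ribosomal protein genes gave -0.23, 0.11 and -0.20 at D0 and -0.21, -0.13 and 0.29 at D18. Genes with transcripts of 2000 bases or more (6539) had medians between -0.05 and 0.04 in every sample. Of the members, 45 have transcripts under 1000 bases, with median changes of 0.15, 0.17 and 0.11 at day 4, 11 and 18, against 0.11, 0.11 and 0.08 in the other short genes. The 21 members between 1000 and 2000 bases had medians of 0.14, 0.11 and 0.13 (other genes of that length 0.06, 0.06 and 0.06), and the 11 longer ones 0.09, 0.04 and 0.02 (other genes -0.00, 0.01 and 0.01). With the per-sample level of short genes as a covariate, an alternative chosen after seeing the data, the median fitted change was 0.03, 0.01 and -0.00. For this covariate the length limit was above 1000 bases, so its genes were not only the 416 named above. The short-gene level was -0.08, 0.03 and -0.13 at D0 and ran from -0.06 to 0.16 in the treated samples. D0 replicates 1 and 3 lay below all treated samples, so that fit cannot fully separate this level from treatment. With estimated depth as a covariate the median fitted change was 0.01, 0.09 and 0.07, and at day 4 depth and treatment cannot be told apart.

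**Figure D3:**
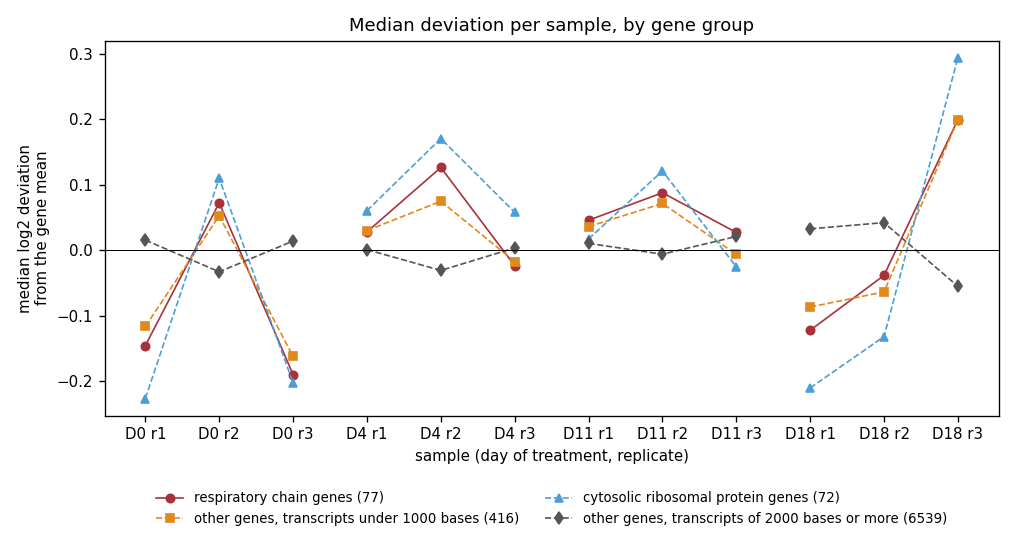
Median log2 deviation from the gene mean in each of the 12 samples, for the 77 respiratory chain genes, 416 other genes with short transcripts, 72 cytosolic ribosomal protein genes and 6539 genes with long transcripts; lines join the replicates of a group and stand for no order. The first 3 groups are lowest in D0 replicates 1 and 3 and D18 replicate 1 and highest in D18 replicate 3, where the members reach 0.20 and the ribosomal protein genes 0.29.

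Together the 77 members held 0.626%, 0.726% and 0.632% of all normalised counts in the D0 samples, 0.683%, 0.767% and 0.700% at D4, 0.715%, 0.711% and 0.718% at D11, and 0.642%, 0.671% and 0.777% at D18. D4, D11 and D18 each overlapped D0, and all 3 D11 samples lay below D0 replicate 2. Within a group the median coefficient of variation over members was 10.4% at D0, 7.01% at D4, 5.28% at D11 and 12.1% at D18, so D11 was the tightest group.

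**Figure D4:**
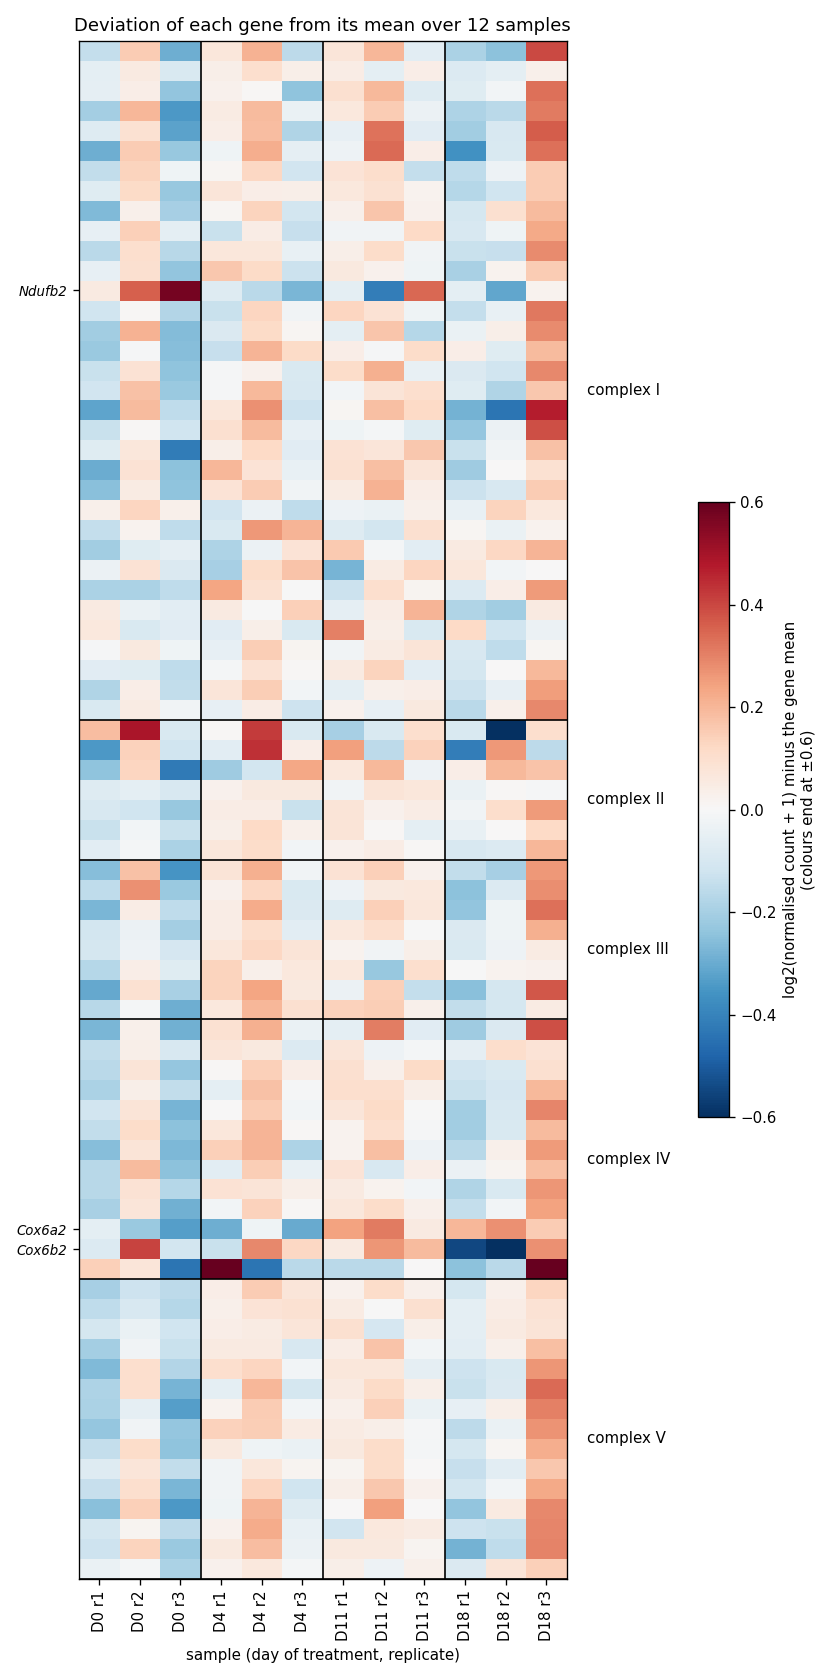
Log2(normalised count + 1) minus the mean of the gene over 12 samples, for the 77 genes in rows by complex and the 12 samples in columns; red is above and blue below the gene mean, colours end at 0.6, and 3 rows are named. Columns D0 replicates 1 and 3 are mostly blue and D18 replicate 3 mostly red in all 5 complexes, while Ndufb2, Cox6a2 and Cox6b2 depart from their neighbours.

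Complex IV has subunits with tissue-specific isoforms. COX6A2 is the heart and skeletal muscle form of subunit 6A, and COX6A1 the form of other tissues. Cox6a2 (chr7:128205435-128206387, minus strand) had 139, 124 and 115 normalised counts at D0 and 118, 142 and 117 at D4, then 171, 180 and 150 at D11 and 166, 175 and 161 at D18. Every D11 and D18 sample lay above every D0 and D4 sample. Over the 4 times it was the 1 member that passed the F-test of limma (adjusted p = 0.0459, background 9.47% of all genes). The log2 change was 0.40 ± 0.13 at day 11 and 0.41 ± 0.13 at day 18, 1.32-fold and 1.33-fold, with adjusted p of 0.0847 and 0.0575 in limma. Day 18 against day 4 gave 0.42 ± 0.13 (adjusted p = 0.0760), and day 11 against day 4 gave 0.41 ± 0.13 (adjusted p = 0.155). With sample weights these 4 changes passed (adjusted p = 0.0203, 0.0204, 0.0144 and 0.0238), and the day 18 change against D0 also passed with a mean of at least 40 (0.0476) and without D4 replicate 2 (0.0487). The F-test count fell to 0 in 9 of the 12 fits that leave out a library: each D0 library, D4 replicates 1 and 3, D11 replicates 1 and 2, and D18 replicates 1 and 2. Without D18 replicate 3 it was 4, and with sample weights it was 6.

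Cox6a1 (chr5:115345642-115348981, minus strand) stood at 1938, 2263 and 1996 at D0, 2120, 2496 and 2201 at D4, 2367, 2368 and 2263 at D11, and 2011, 2062 and 2527 at D18. Per length, Cox6a2 made up 4.90% ± 0.69 (SD, n = 3) of the sum of both forms at D0, 4.43% ± 0.15 at D4, 5.66% ± 0.37 at D11 and 6.07% ± 0.86 at D18. The skeletal muscle markers Acta1 and Ckm were at 1 to 13 and at 0 to 2 normalised counts in all 12 samples, and the fast muscle genes Mylpf and Tnnt3 were at 104 to 162 and at 31 to 75. Tnnt3 fell at day 18 (-0.80 ± 0.22, limma adjusted p = 0.0346). Cox6a2 lies within the span of Itgad, an integrin gene on the opposite strand, and shares exon sequence with it. Itgad stood at 120, 142 and 181 at D0, 144, 134 and 159 at D4, 90, 140 and 78 at D11, and 79, 103 and 102 at D18. Its changes at day 4, 11 and 18 were -0.003, -0.55 and -0.63, each ± 0.21 (limma, adjusted p = 0.996, 0.163 and 0.0812). The part of Itgad reads in the Cox6a2 value was not tested.

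Over 293 aligned coding bases the 2 forms were 64.8% identical, and the longest identical run was 12 bases. Their last 120 coding bases, stop codon included, are shown with capitals at the positions where they differ (GENCODE principal transcripts, GRCm38), and 87 of the 120 are the same. These are coding bases 220 to 339 of Cox6a1 and 175 to 294 of Cox6a2.
Cox6a1: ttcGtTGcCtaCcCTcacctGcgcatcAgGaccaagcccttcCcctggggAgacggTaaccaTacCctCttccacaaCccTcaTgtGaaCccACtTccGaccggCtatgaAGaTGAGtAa
Cox6a2: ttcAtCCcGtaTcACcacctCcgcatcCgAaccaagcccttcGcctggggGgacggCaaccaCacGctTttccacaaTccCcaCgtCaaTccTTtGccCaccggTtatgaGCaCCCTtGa

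Cox6b2, the testis form of subunit 6B, was low in 2 of the 3 D18 libraries. Its normalised counts were 345, 484 and 339 at D0, 333, 447 and 398 at D4, 379, 440 and 417 at D11, and 250, 220 and 442 at D18. The D18 libraries thus held both the lowest values of the series and one that lay inside the range of the other times. Its change at day 18 was -0.41 ± 0.22 (limma, adjusted p = 0.284), and without D18 replicate 3 it was -0.71 with an adjusted p of 0.0139. With the short-gene covariate it was -0.70 (adjusted p = 0.00356), and with sample weights -0.58 (adjusted p = 0.0291). Over all alternatives its adjusted p reached 0.654. Cox6b1 stood at 2070 ± 257, 2290 ± 150, 2315 ± 94.5 and 2237 ± 423. Per length Cox6b2 made up 16.5% ± 1.4, 15.3% ± 1.4, 15.8% ± 1.0 and 12.3% ± 2.3 of both forms.

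Other tissue forms were scarce. Cox7a1, the heart and muscle form of subunit 7A, had 13 to 33 normalised counts and made up 1.45% to 3.48% of the sum with Cox7a2, the general form, which stood at 1166 ± 166, 1344 ± 187, 1339 ± 103 and 1332 ± 196. The lung form Cox4i2 had 4 to 16, the muscle form Cox8b at most 2, and Ndufa4l2, a hypoxia-induced relative of Ndufa4, at most 5. The counterpart Cox8a was not analysed here.

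**Figure D5:**
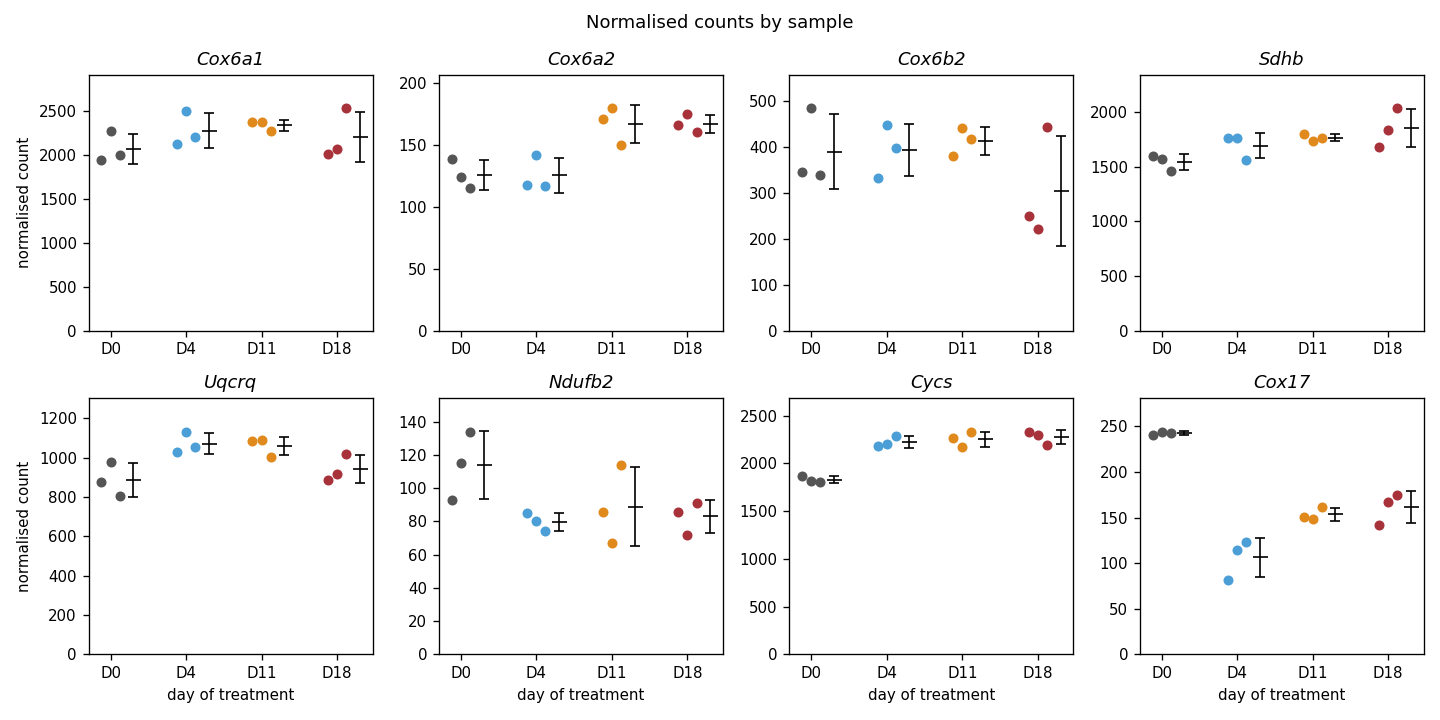
Normalised counts (linear axis from 0) of 6 members, and of Cycs and Cox17, in each sample at D0, D4, D11 and D18; points are samples, and the bar with whiskers is the mean with its SD (n = 3). Cox6a2 lies higher at D11 and D18 than at D0 and D4, 2 D18 samples of Cox6b2 lie lowest, Cycs is higher and Cox17 lower in all treated samples than in all untreated ones.

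Assembly factors of the members were low and mixed. Ndufaf5, which modifies a core subunit of complex I, gave the highest day 4 change of all members, from 115, 115 and 118 to 155, 140 and 131 (0.29 ± 0.13, adjusted p = 0.222 in limma), with no overlap. With estimated depth as a covariate that change was 0.03. Ndufaf1, a chaperone of the membrane arm, was lower at day 4 without overlap, from 350, 374 and 349 to 316, 334 and 308 (-0.16 ± 0.08, adjusted p = 0.287), and at day 11 the groups overlapped (-0.08 ± 0.08, adjusted p = 0.658). Sdhaf4, which helps mature Sdha, stood at 53.0 ± 10.8 at D0 and 65.3 ± 3.8 at D18 (0.31 ± 0.18, adjusted p = 0.336), and 0.19 without D0 replicate 3. Sdhaf1, which serves Sdhb, stood at 16.3 ± 3.5 at D0, and at 13, 8 and 15 at D18 (-0.44 ± 0.30, adjusted p = 0.428), with 8 to 20 counts in all samples. That change was -0.29 without D0 replicate 2 and -0.19 without D18 replicate 2.

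Outside the named families, a few genes that serve the chain were called, Cycs higher and Cox17, Tmem126b and Dmac2 lower. Cycs was the only call in its list, the cytochrome carriers. The lists of complex II and III assembly factors and of complex V assembly factors and inhibitor held no call at any of these times. For the lists below, the background was 4.64%, 5.32% and 9.2% of all genes called at day 4, 11 and 18. Cycs, cytochrome c, the electron carrier between complexes III and IV and a trigger of apoptosis when released (chr6:50562563-50566538, minus strand), stood at 1869, 1817 and 1801 at D0, 2177, 2204 and 2289 at D4, 2265, 2171 and 2325 at D11, and 2330, 2300 and 2195 at D18. All 9 treated samples lay above all untreated ones and the treated groups overlapped each other. The log2 changes were 0.28 ± 0.06, 0.30 ± 0.06 and 0.31 ± 0.06 (limma, adjusted p = 0.0137, 0.00686 and 0.00335). The day 11 and day 18 calls held in all 24 alternatives. The day 4 call was lost without D0 replicate 3 or D4 replicate 3 and with estimated depth as a covariate (adjusted p up to 0.133). Cycs has processed pseudogene copies, and how reads shared with them were counted is not given in the sources used here.

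Cox17, the copper chaperone that supplies complex IV (chr16:38346991-38352763, plus strand), fell. It stood at 240, 244 and 243 at D0, 82, 114 and 123 at D4, 151, 148 and 161 at D11, and 142, 167 and 175 at D18. The treated samples were all below the untreated, lowest at D4. The log2 changes were -1.20 ± 0.14, -0.66 ± 0.14 and -0.59 ± 0.14 (limma, adjusted p = 0.000273, 0.0167 and 0.0209). The day 4 call held in all 24 alternatives. The day 11 call was lost without any 1 of the D0 libraries or D11 replicate 1 or 2, and with estimated depth as a covariate (adjusted p up to 0.0639). At day 18 it was lost without any 1 of the D0 libraries or D18 replicate 1 or 2 (adjusted p up to 0.0716). Another protein-coding gene on the same strand shares its exons, so reads may be split between them. Of the other complex IV assembly factors, 17 were tested and 0 were called at any of the 3 times.

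Among 9 complex I assembly factors outside the named families, 1 was called at each time. At day 4 it was Tmem126b, part of the assembly complex of the membrane arm, which fell from 418, 424 and 350 to 266, 294 and 300 (-0.47 ± 0.12, adjusted p = 0.0411 in limma). At day 11 and 18 it was Dmac2, which fell from 671, 718 and 642 at D0 to 537, 495 and 517 and to 574, 494 and 514 (-0.39 ± 0.08 and -0.36 ± 0.08, adjusted p = 0.0114 and 0.0116). The Tmem126b call was lost in 7 of 12 fits without 1 library: D0 replicates 1 and 2, each D4 library, and D18 replicates 1 and 2. The Dmac2 calls were lost without D0 replicate 2 and, at day 18, without D18 replicate 2, with adjusted p up to 0.0627 and 0.0589 over all alternatives.

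The citric acid cycle, which feeds the chain with NADH and succinate, gave 16 tested genes, of which 0, 1 and 0 were called at day 4, 11 and 18, with medians of 0.13, 0.11 and 0.10. The call was Cs, citrate synthase, at 5221, 5171 and 5248 at D0 and 5986, 6252 and 6067 at D11 (0.23 ± 0.06, limma adjusted p = 0.0345). It was lost in 7 of the 12 fits without 1 library: each D0 and each D11 library, and D4 replicate 3. Mitochondrial import and carrier genes (17 tested) had medians of 0.23, 0.18 and 0.16, with 1, 1 and 2 called, all higher. Slc25a4, the ADP/ATP carrier that exports the ATP made by complex V, rose from 1043, 1087 and 999 to 1318, 1292 and 1420 at D11 and to 1192, 1271 and 1408 at D18 (0.36 ± 0.07 and 0.30 ± 0.07, adjusted p = 0.00963 and 0.0184). These calls were lost without D0 replicate 3 and, in turn, without D11 replicate 3 and D18 replicate 2. Vdac1, the outer membrane channel, was called at day 4 (0.27 ± 0.07, adjusted p = 0.0386) and Hspd1, the matrix chaperonin, at day 18 (0.27 ± 0.08, adjusted p = 0.0461). The Vdac1 call held without D11 replicate 2, D18 replicate 1 or D18 replicate 3 and was lost without any other single library. The Hspd1 call held without D4 replicate 1 or 2 or D11 replicate 1 or 3 and was lost without any other.

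Glycolysis, the other source of ATP, gave 18 tested rows, of which 0, 1 and 5 were called (background 4.64%, 5.32% and 9.2% of all genes). Pfkp, the platelet form of phosphofructokinase, rose from 2046, 1697 and 1913 at D0 to 2484, 2250 and 2714 at D11 and 2774, 2869 and 2375 at D18 (0.40 ± 0.10 and 0.50 ± 0.10, limma adjusted p = 0.0328 and 0.00586). The day 18 call held in all 24 alternatives, and the day 11 call was lost without D0 replicates 2 or 3 or D11 replicates 1 or 3. The muscle form Pfkm fell at day 18, from 754, 912 and 909 to 591, 644 and 742 (-0.38 ± 0.10, adjusted p = 0.0357). Ldha, lactate dehydrogenase A, rose at day 18 (0.34 ± 0.08, adjusted p = 0.0166), as did Pgk1, phosphoglycerate kinase (0.30 ± 0.08, adjusted p = 0.0348). Pfkl rose as well at day 18 (0.24 ± 0.07, limma adjusted p = 0.0416), and its values under the alternatives are not reported here. The Ldha call was lost without D0 replicate 2 or 3 or D18 replicate 2. The Pgk1 call was lost without these or without D11 replicate 1 or D18 replicate 3, and the Pfkm call without D0 replicate 2 or 3, D4 replicate 3, or D18 replicate 1 or 2. Mitochondrial ribosomal proteins (69 tested) had 0, 0 and 3 called higher and 1, 0 and 0 lower, with medians of 0.08, 0.09 and 0.08. Of 9 regulators of mitochondrial biogenesis 0 were called at any time, with 0 under an unadjusted p of 0.05 at each.

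Promoters were read for the members without regard to how they varied across libraries. Of 77 members 63 had a promoter in the RefSeq table (GRCm38.p6), taken from 250 bases before to 50 after the gene start. Motifs were searched on both strands. The motif of nuclear respiratory factor 1, GCGCANGCG, was in 33.3% of members' promoters and in 9.6% of those of 17492 protein-coding genes. The ETS motif CCGGAAG, which GABP (nuclear respiratory factor 2) binds, was in 28.6% against 12.9%, and the YY1 motif AAGATGGCG in 11.1% against 2.1%. CCAAT was in 46.0% against 42.3% and TATAAA in 7.9% against 14.8%. These shares describe letters in the window and were not tested. The promoters shown cover the range, as the 250 bases before the start on the gene's strand, with matches to GCGCANGCG and CCGGAAG in capitals: Cox6a1 with both (chr5:115348959-115349208 (- strand)), Sdhd with both (chr9:50603850-50604099 (- strand)) and Atp5b, the most abundant member, with neither (chr10:128083057-128083306 (+ strand)). In Cox6a1 the first capital run holds overlapping matches on both strands, since the motif reads almost the same on each.
Cox6a1: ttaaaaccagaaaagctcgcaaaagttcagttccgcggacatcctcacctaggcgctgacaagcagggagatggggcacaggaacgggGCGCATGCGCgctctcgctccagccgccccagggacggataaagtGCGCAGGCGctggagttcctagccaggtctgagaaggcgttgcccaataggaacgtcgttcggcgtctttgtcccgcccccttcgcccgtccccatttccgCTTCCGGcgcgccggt
Sdhd: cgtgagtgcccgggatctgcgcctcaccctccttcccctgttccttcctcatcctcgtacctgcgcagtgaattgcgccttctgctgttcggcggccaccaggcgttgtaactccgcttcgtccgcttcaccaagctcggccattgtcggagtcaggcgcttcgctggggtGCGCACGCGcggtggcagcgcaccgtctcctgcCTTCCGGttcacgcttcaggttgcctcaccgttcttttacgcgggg
Atp5b: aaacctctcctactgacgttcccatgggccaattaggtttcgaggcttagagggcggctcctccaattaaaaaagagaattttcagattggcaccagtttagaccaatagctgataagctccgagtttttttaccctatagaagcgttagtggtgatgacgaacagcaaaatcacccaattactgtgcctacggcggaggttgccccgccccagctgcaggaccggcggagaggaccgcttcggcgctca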

How the data were processed

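RNA of total bone marrow was sequenced as poly(A) mRNA libraries with a strand-marking kit, per the labels' protocols. Tools listed in the submitters' processing notes, with no role, are STAR 2.3.0, featureCounts 1.4.6 of Subread, and limma, with build GRCm38. The deposited values are treated as a score: normalised counts that the authors rounded to whole numbers, with a scaling not given in the sources used here. No count model was therefore used. The 14883 of 23134 genes that reached a value of 10 in 3 or more samples were fitted on log2(value + 1) with limma 3.58.1 in R 4.3.3, as 1 model of 4 group means over 12 samples with an intensity trend, tested on simulated data. Tests were two-sided with Benjamini-Hochberg adjustment over all genes and a threshold of 0.05. Fold changes are on the log2(value + 1) scale. Depth was estimated from which whole numbers are missing or doubled among low values. All identifiers matched GENCODE M21, which gave positions and lengths; the exons of 31 members overlap another annotated gene.

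Members, roles and lists were chosen with earlier results of these data known. Named in each comparison against D0 were the 3 highest and 3 lowest fitted changes, the called members, the 5 most abundant members, core subunits, tissue isoforms, and up to 4 called genes of each other pathway list. Pfkl was named in addition. The values of 1 core subunit are not reported here. Pseudocounts, filters, scalings, weights, covariates and single left-out libraries were tried as alternatives.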

Additional observations from a re-analysis of the deposited data

Results flagged for a closer look

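Cox17 differed between treated times. Its change against untreated marrow was -1.20 at day 4 and -0.59 at day 18 on the log2 scale, and the test of the difference itself, day 18 against day 4, gave 0.61 with an adjusted p of 0.0233 (limma, Benjamini-Hochberg over all genes). The 3 D18 samples (142, 167 and 175 normalised counts) all lay above the 3 D4 samples (82, 114 and 123). Day 11 against day 4 did not pass (adjusted p = 0.0892).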

How the results depend on the processing

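No paired analysis was possible because replicate numbers follow accession order and pair no samples. Sample weights called 6, 7 and 3 members at day 4, 11 and 18, 1 for day 11 against day 4, 2 for day 18 against day 4, and 6 over the 4 times. At day 18 a pseudocount of 5 called 1 member, a mean of at least 40 called 2 and the short-gene covariate 1, which also called 1 for day 18 against day 4. The F-test called 0 with no filter, trimmed-mean rescaling, equal totals or estimated depth as a covariate. Leaving out 1 library gave 0 to 3 called at day 4, 0 to 2 at day 18, 0 to 1 for day 18 against day 4 and 0 to 4 over the 4 times. The share of all genes called under each alternative is not reported here. Member counts and passes under the alternatives, here and above, are thus not set against a background. With estimated depth as a covariate the median member change was 0.0118 at day 4 and 0.0710 for day 11 against day 4, and with the short-gene covariate 0.0136 at day 11. Estimated depth did not overlap between D0 and D4, so day 4 values with that covariate cannot separate depth from treatment. Values with the short-gene covariate cannot fully separate the short-gene level from treatment either. The sign reversed for Ndufs1 at day 4 and 11 with equal totals (-0.0169 and -0.0131) and the short-gene covariate (-0.0172 and -0.0229), and with estimated depth at day 4 for Ndufs1 (-0.0101), Uqcrh (-0.0317) and Cox4i1 (-0.104). Without 1 library Ndufs1 ran from -0.0266 to 0.0731 at day 4 and Uqcrfs1 from -0.0138 to 0.15 at day 11. The calls of Vdac1, Cs, Hspd1, Pgk1, Ldha, Pfkm, Tmem126b, Dmac2, Slc25a4 and Pfkp named in the report were each lost also under 1 or more of the other settings, except Slc25a4 at day 11 and Pfkp at day 18. The cause was not tested. The widest fitted intervals among members at day 18 were those of Cox7a1, with 13 to 33 normalised counts, and Sdhaf1, with 8 to 20.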

Other observations

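One row left out for its name stood as high as a subunit. Ndufb1-ps (chr12:101968090-101977068, minus strand, GRCm38) had 1268 to 1627 normalised counts over the 12 samples, with a mean of 1465, while the other 13 rows left out for -ps had means of at most 68.8. GENCODE M21 types it as a bidirectional promoter lncRNA, and the RefSeq gene table lists Ndufb1-ps as a synonym of Ndufb1, a protein-coding subunit of complex I. Its changes against untreated marrow were 0.11 ± 0.09, 0.09 ± 0.09 and -0.02 ± 0.09 at day 4, 11 and 18 (limma, adjusted p = 0.547, 0.629 and 0.912). Cox5b-ps, typed as protein-coding, had the mean of 68.8.

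Constitutive proteasome subunits (30 tested) had no overlap with untreated marrow, all higher, in 20, 21 and 13 genes at day 4, 11 and 18, where 13.5%, 14.1% and 13.8% of all genes did. Of them 1, 2 and 4 passed limma, all higher (background 4.64%, 5.32% and 9.2% of all genes), and the medians were 0.15, 0.18 and 0.16. Their median deviation per sample was -0.10, -0.05 and -0.19 at D0 and -0.05, 0.003 and 0.17 at D18. The part of single libraries in these values was not tested. In the same comparisons 12, 15 and 8 of the 77 respiratory chain genes lay wholly above untreated marrow, against the same background of 13.5%, 14.1% and 13.8%.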
